A study of Mus musculus with 132 samples.

Results

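CTCF binding sites that lay away from gene starts and in chromatin open both before and after blood formation were described in a mouse embryonic stem cell (mESC) model of hematopoiesis. A site was a CTCF ChIP-seq peak of 416B cells whose midpoint was over 2 kb from every gene start and which overlapped, by at least 1 bp, an ATAC-seq peak of Flk1+ mesoderm and one of CD41+ hematopoietic progenitor cells (HPCs). This held for 3727 of 44513 CTCF peaks, or 8.37%, and for 9.31% of the 40047 distal peaks (95% Wilson interval 9.03 to 9.60). Wilson intervals here and below cover counting error alone, since each list was called once on merged reads. The rest of the distal peaks comprised 7842 open in mesoderm only, 673 open in HPCs only and 27805 without an ATAC-seq peak, and 4466 peaks were promoter-proximal.

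The study followed Runx1, a regulator of developmental hematopoiesis, from undifferentiated mESCs (day 0) through Flk1+ mesoderm (day 4) to CD41+ HPCs (day 7). All differentiated cells derive from the male ES cell line E14-TG2a of strain 129/Ola. The ATAC-seq lists came from wild-type cells. By the Methods these were E14-TG2a-RV cells, with a Venus reporter at Runx1 and a transgene of the Runx1 +23 enhancer in the Col1a1 locus, whereas the sample labels name E14-TG2a. CTCF was mapped in 416B, a hematopoietic progenitor cell line of strain (C57BL/6xDBA/2)F1, so CTCF occupancy in the mesoderm and HPCs themselves was not measured by these lists. Poly(A)-minus RNA-seq covered undifferentiated wild-type mESCs (2 libraries, labelled technical replicates), wild-type mesoderm (3 libraries, 1 each of clones C6.1, C8.1 and B9.3) and wild-type HPCs (4 libraries, the same clones and a second library of B9.3). It also covered clones that lack a CTCF site next to an alternative Runx1 promoter, namely P1-CTCF-KO (3 libraries per stage used here) and P2-CTCF-KO (3 mesoderm libraries used here). Library totals were 18233679 to 24406998 counts in mesoderm and 8293575 to 10733304 counts in wild-type HPCs. The levels below rest on effective library sizes, which are totals after filtering and scaling within a fit. In the wild-type fit these were 12756157, 12386593 and 6108157 for mesoderm clones B9.3, C8.1 and C6.1, and 5800733 to 8918506 in HPCs. In the mesoderm fit the same clones were at 24037280, 23500047 and 11363685, so C6.1 was scaled as a smaller library despite its total of 21634629. The 2 mESC libraries of the wild-type fit were at 135560955 and 75236244, far above their totals of 24283287 and 20532578 and above the other libraries of that fit.

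CTCF is a zinc finger protein that binds a long, directional DNA motif and halts cohesin, the ring complex that extrudes chromatin loops. Loops form most readily between CTCF sites whose motifs point towards each other, and arrays of such sites mark the borders of topologically associating domains (TADs). Bound CTCF keeps the surrounding DNA free of nucleosomes, so that many CTCF sites are accessible to the transposase of ATAC-seq, and many of them are bound in most cell types.

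The sequences of the sites in the study's Runx1 TAD are shown first, as these are the sites nearest to the locus that the study dissected. Each is 200 bases of the plus strand of mm9 around the midpoint of the peak. Capitals mark AGNNGGC or its reverse complement GCCNNCT, the most constant letters of the CTCF core.
Runx1 promoter site, chr16:92828285-92828484: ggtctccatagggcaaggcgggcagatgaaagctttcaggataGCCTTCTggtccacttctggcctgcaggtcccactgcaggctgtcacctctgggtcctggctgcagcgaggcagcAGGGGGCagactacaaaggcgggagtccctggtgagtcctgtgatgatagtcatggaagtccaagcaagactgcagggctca
Runx1 intron site, chr16:92801902-92802101: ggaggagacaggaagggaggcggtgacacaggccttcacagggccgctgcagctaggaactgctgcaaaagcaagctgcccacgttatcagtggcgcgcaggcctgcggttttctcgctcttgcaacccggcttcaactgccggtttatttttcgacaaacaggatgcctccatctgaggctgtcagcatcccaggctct
Gene desert site, chr16:93293405-93293604: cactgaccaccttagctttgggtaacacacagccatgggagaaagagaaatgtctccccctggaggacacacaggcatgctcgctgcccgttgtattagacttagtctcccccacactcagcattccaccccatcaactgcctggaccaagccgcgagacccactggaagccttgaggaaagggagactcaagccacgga
Capitals occurred only in the promoter site, which held 1 match per strand. None of the 3 held the full core CCNNNAGNNGGC, and each came within 1 mismatch of it.

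A further 8 sites near blood, mesoderm and pluripotency regulators, near the Ctcf gene and in the closest pair of sites are shown because they hold the full core, and these were chosen after their values were seen. Capitals mark the core on 100 bases of the plus strand, read as CCNNNAGNNGGC or, for a motif on the minus strand, as its reverse complement.
Cbfa2t3 site, chr8:125243588-125243687: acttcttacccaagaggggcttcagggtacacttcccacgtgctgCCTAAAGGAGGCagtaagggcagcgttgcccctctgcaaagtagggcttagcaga
Lyl1 site, chr8:87233199-87233298: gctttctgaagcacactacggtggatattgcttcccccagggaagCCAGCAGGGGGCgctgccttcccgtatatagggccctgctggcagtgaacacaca
Etv6 site, chr6:133910853-133910952: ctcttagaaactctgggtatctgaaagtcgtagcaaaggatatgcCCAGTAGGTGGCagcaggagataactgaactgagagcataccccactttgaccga
Fli1 site, chr9:32399486-32399585: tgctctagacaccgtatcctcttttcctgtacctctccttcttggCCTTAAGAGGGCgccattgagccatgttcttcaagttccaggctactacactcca
Ctcf site, chr8:108146421-108146520: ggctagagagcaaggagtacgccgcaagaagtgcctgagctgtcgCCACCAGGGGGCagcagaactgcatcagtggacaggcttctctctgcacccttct
Mixl1 site, chr1:182694193-182694292: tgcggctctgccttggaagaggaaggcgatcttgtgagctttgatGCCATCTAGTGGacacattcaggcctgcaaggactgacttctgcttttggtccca
Esrrb site, chr12:87774364-87774463: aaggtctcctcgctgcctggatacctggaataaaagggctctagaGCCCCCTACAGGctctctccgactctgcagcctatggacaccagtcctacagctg
Spata7 site, chr12:99912858-99912957: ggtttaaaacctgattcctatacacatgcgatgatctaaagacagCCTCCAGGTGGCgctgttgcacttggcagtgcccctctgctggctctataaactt
The cores near Mixl1 and Esrrb lay on the minus strand and the other 6 on the plus strand. The Fli1 site was closer to the start of Ets1, the Mixl1 site to Acbd3 and the Ctcf site to Mir1966.

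Distal CTCF peaks that were open in mesoderm stayed open in HPCs more often than other distal open regions did. Of 11569 distal CTCF peaks open in mesoderm, 3727 (32.2%, 31.4 to 33.1) were also open in HPCs, against 6764 of 45369 distal mesoderm ATAC-seq peaks without CTCF (14.9%, 14.6 to 15.2). In the other direction, 84.7% of 4400 distal CTCF peaks open in HPCs (83.6 to 85.7) were already open in mesoderm, against 48.6% of 14060 HPC ATAC-seq peaks without CTCF (47.8 to 49.5). Of promoter-proximal CTCF peaks open in mesoderm, 52.8% of 2306 (50.8 to 54.9) were open in HPCs too. Peaks of a merged list are not replicates, so these shares are given with counting intervals and without a test. The HPC list was shorter, with 29037 peaks from 2 libraries of 1 experiment against 76766 from 4 libraries of 2 experiments, and the part of this difference in the shares was not tested.

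**Figure D1:**
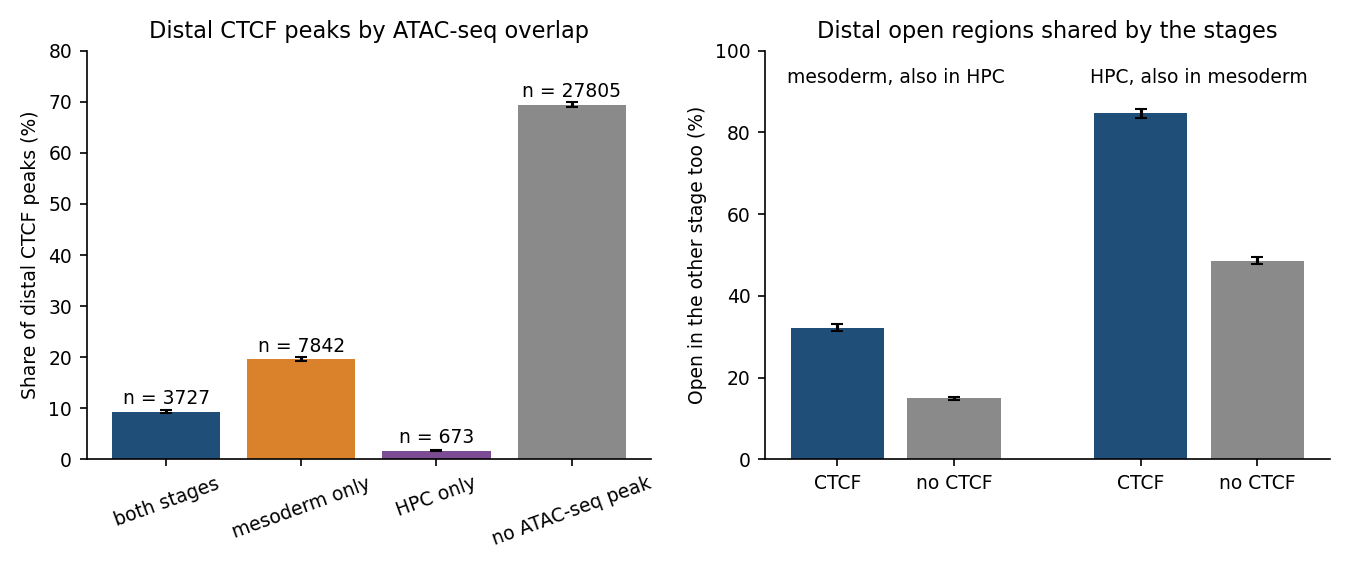
Left, share of the 40047 distal CTCF peaks (%, bars from 0, with 95% Wilson intervals) by ATAC-seq overlap. Right, share of distal open regions of 1 stage that were also open in the other (%), for regions at a CTCF peak (blue) and regions without CTCF (grey); CTCF regions were at 32.2% and 84.7%, the others at 14.9% and 48.6%.

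Since every site overlaps a peak of each stage by the rule, the place of these peaks is given as a description. The mesoderm and HPC peaks overlapped each other at 3707 of 3727 sites (99.5%). The midpoint of the ATAC-seq peak lay a median of 28 bp from that of the CTCF peak in mesoderm and 27 bp in HPCs, where overlap by itself allows a median of up to 205 and 189 bp. The median was 28.5 bp at mesoderm-only peaks and 26 bp at HPC-only peaks, and 46 and 52 bp at promoter-proximal peaks open in mesoderm and in HPCs. More than 1 ATAC-seq peak was called at 51 sites in mesoderm and at 28 in HPCs. In mesoderm the ATAC-seq peaks at the sites were wider than usual, with a median of 131 bp against 105 bp at distal peaks without CTCF, whereas in HPCs they were narrower, with 96 bp against 106 bp.

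**Figure D2:**
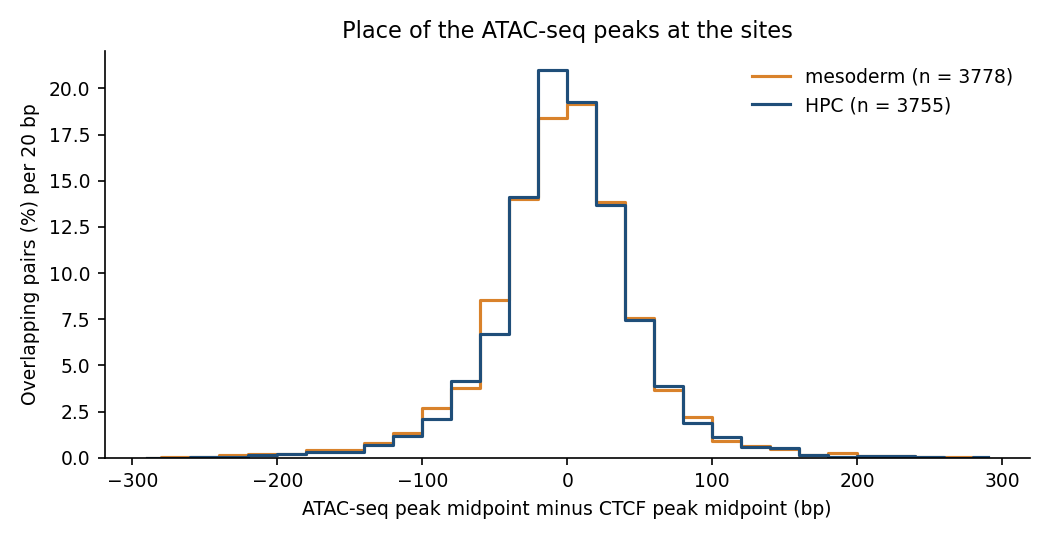
Distance from the CTCF peak midpoint to the ATAC-seq peak midpoint (bp, x axis) for every overlapping pair at the sites, as the share of pairs per 20 bp (%, y axis), in mesoderm (orange, 3778 pairs) and HPCs (blue, 3755 pairs). The distance is bounded by the overlap that the rule requires; both distributions centre on 0, with medians of the absolute distance of 28 bp and 27 bp.

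The CTCF peaks at the sites were wide. Their median width was 273 bp (quartiles 237 and 314 bp, range 140 to 953 bp), close to the 271 bp of peaks open in mesoderm only and above the 228 bp of distal peaks without ATAC-seq. With the distal peaks put in 4 groups of equal number by width, the share that were sites was 3.1% in the narrowest group (140 to 193 bp), then 7.52% and 12.4%, and 14.2% in the widest (289 bp and over). The rule asks for an overlap of at least 1 bp, which a wider CTCF peak meets more easily. The part of this in the rise with width was not tested. The lists hold positions without heights, so strength of binding could not be compared.

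The sites had a larger median distance to genes than the other distal classes. The median distance from a site to the nearest gene start was 33.3 kb (quartiles 13 and 84.2 kb), against 23.8 kb for distal peaks open in mesoderm only, 27.2 kb for those open in HPCs only and 24.8 kb for those without ATAC-seq. Within 10 kb of a start lay 737 sites (19.8%, 18.5 to 21.1), against 23.6% of mesoderm-only peaks, 20.7% of HPC-only peaks (17.8 to 23.9) and 24.0% of peaks without ATAC-seq. Over 100 kb away lay 807 sites (21.7%, 20.4 to 23), against 15.0%, 16.5% and 14.3% in the 3 other distal classes. The farthest site, 1.43 Mb from the start of A330008L17Rik on chromosome 8, had a second site beside it, 1.36 Mb from the same gene. At the 2 kb limit of the rule, the nearest sites kept lay 2008 bp from 6030440G07Rik, 2009 bp from Angpt1 and 2027 bp from Tmem163. The nearest peaks left out lay 2000 bp from Zfp335, 1993 bp from Mst1r and 1984 bp from Iah1.

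Fewer of the sites lay inside genes than of mesoderm-only peaks and of peaks without ATAC-seq. The midpoint of 1584 sites (42.5%, 40.9 to 44.1) fell within the span of a gene of the count table, against 46.8% of mesoderm-only peaks, 47.0% of HPC-only peaks (43.2 to 50.7, which overlaps the interval of the sites) and 50.2% of peaks without ATAC-seq. By the GENCODE annotation of mm9, 2089 sites were intergenic (56.0%, 54.5 to 57.6), 1452 intronic (39.0%) and 186 exonic (4.99%). The intergenic share was 51.2% in mesoderm-only peaks, 52.3% in HPC-only peaks and 47.8% in peaks without ATAC-seq. Relative to the nearest start, 43.7% of the sites lay upstream, against 42.5% to 44.3% in the other distal classes. GENCODE lists transcript starts that the count table lacks, and 318 sites (8.53%) lay within 2 kb of one of them.

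**Figure D3:**
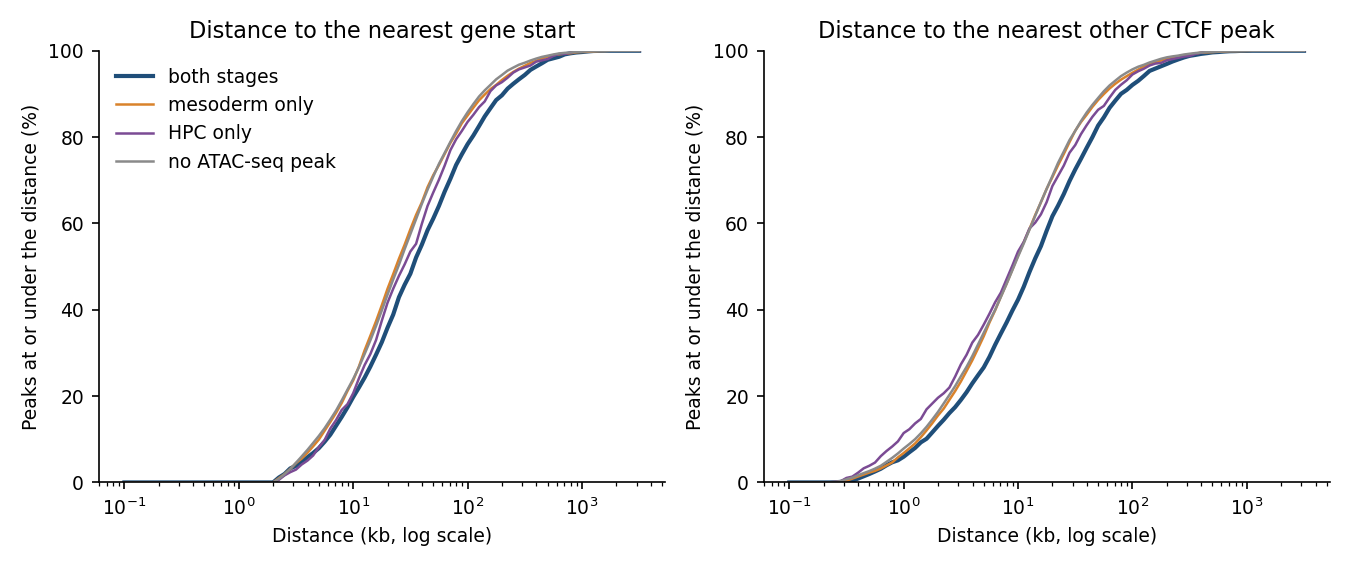
Cumulative share of distal CTCF peaks (%, y axis) by distance (kb, log scale) to the nearest gene start (left) and to the nearest other CTCF peak (right), for sites open in both stages (thick blue), mesoderm only (orange), HPC only (purple) and no ATAC-seq peak (grey). The blue curve lies to the right of the others in most of both panels, with medians of 33.3 kb and 13.1 kb.

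The sites were also farther from other CTCF peaks. The nearest other CTCF peak of any class lay a median of 13.1 kb away, against 9.12 kb for mesoderm-only peaks, 8.75 kb for HPC-only peaks and 9.18 kb for peaks without ATAC-seq. Another CTCF peak lay within 10 kb of 1578 sites (42.3%, 40.8 to 43.9), against 52.6%, 53.5% and 52.3%. Where a CTCF peak did flank a site along the chromosome, it was itself a site in 1328 of 7441 cases (17.8%). The same share was 9.02% for neighbours of mesoderm-only peaks, 14.4% for those of HPC-only peaks, 7.15% for those of peaks without ATAC-seq and 5.94% for those of promoter-proximal peaks.

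From 1 site to the next, the gap had a median of 292 kb (95% interval 273 to 311 kb), with quartiles of 89.0 and 835 kb over 3707 gaps on 20 chromosomes. A median of 4 other CTCF peaks lay in a gap, and 664 gaps (17.9%) held none. Of the gaps, 158 (4.26%) were under 10 kb and 761 (20.5%) over 1 Mb. The closest pair lay on chromosome 12, with midpoints 370 bp apart and 46.5 and 46.9 kb downstream of the start of Spata7. The 2 peaks of that pair were 324 and 288 bp wide. The widest gap was on the X chromosome, where 24.0 Mb and 43 CTCF peaks separated the sites near Gm6377 and Sytl4.

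The chromosomes differed in how many of their distal CTCF peaks were sites. The share was highest on chromosome 3, with 263 of 1984 (13.3%, 11.8 to 14.8), followed by chromosomes 6 (12.2%), 1 (12.1%) and 12 (11.9%). It was lowest on chromosome 19, with 37 of 1166 (3.17%, 2.31 to 4.34), then on chromosome 11 with 128 of 2874 (4.45%, 3.76 to 5.27) and on the X chromosome with 62 of 951 (6.52%, 5.12 to 8.27). The intervals of chromosomes 11 and 19 did not reach that of any of the 4 highest. Of the distal CTCF peaks open in mesoderm, 41.6% on chromosome 6 but 13.2% on chromosome 19 were also open in HPCs. Distal mesoderm peaks without CTCF varied less, from 12.4% on chromosome 11 to 19.2% on the X chromosome. Across the 20 chromosomes the share of sites was lower where the GC content was higher (Pearson r = -0.47, Spearman rho = -0.60), as a description over chromosomes that share the same libraries. By the labels the differentiated cells are male and 416B cells female, so the number of X chromosomes differed between the assays.

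**Figure D4:**
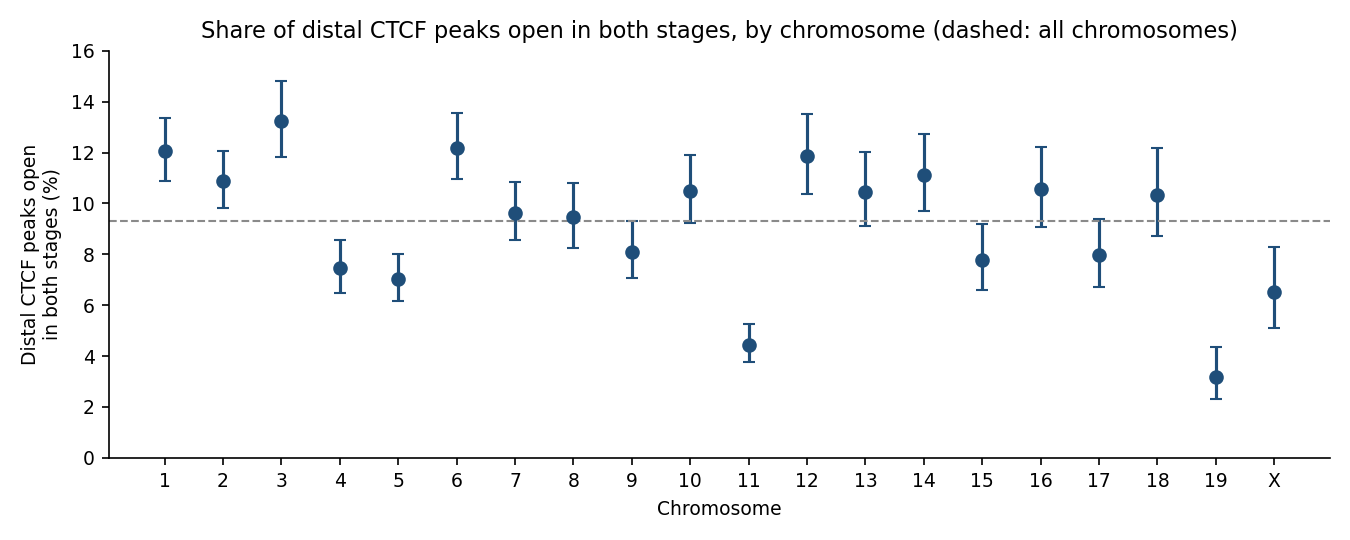
Share of distal CTCF peaks that were open in both stages (%, y axis) on each chromosome, with 95% Wilson intervals as bars and the share over all chromosomes, 9.31%, as a dashed line. Chromosomes 19 (3.17%) and 11 (4.45%) lie lowest and chromosome 3 (13.3%) highest.

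The CTCF core was less frequent at the sites than at CTCF peaks open in mesoderm only or without ATAC-seq. The full core CCNNNAGNNGGC was present, on either strand and within the whole peak, at 1756 sites (47.1%, 45.5 to 48.7). It was on the plus strand alone at 822, on the minus strand alone at 882 and on both at 52. The share was 50.7% in mesoderm-only peaks (49.6 to 51.8), 47.3% in HPC-only peaks (43.5 to 51.0), 55.0% in peaks without ATAC-seq (54.4 to 55.6) and 47.8% in promoter-proximal peaks. In windows of equal length, 200 bp around the midpoint, the core was in 45.5% of the sites, against 2.12% of windows 5 kb beside them and 5.93% of the 6764 distal peaks of both stages without CTCF. With up to 1 mismatch in its 7 fixed letters, the core was in 91.2% of the sites, against 89.2% of peaks without ATAC-seq and 28.8% of the windows beside the sites. A short motif such as this is only part of the CTCF recognition sequence, and its presence was not used to choose the sites.

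The core pointed towards the nearest gene start about as often as away from it. Of 1704 sites with the core on 1 strand, 823 (48.3%, 45.9 to 50.7) pointed towards the nearest gene start. Among 771 pairs of consecutive sites that both had a core on 1 strand, 187 were convergent (24.3%, 21.4 to 27.4), 190 divergent (24.6%, 21.7 to 27.8) and 394 on the same strand (51.1%). For 232 such pairs under 100 kb apart the convergent share was lower, at 16.8% (12.5 to 22.2), than the divergent one, at 28.0% (22.6 to 34.1), and 55.2% were on the same strand. For 11105 such pairs of consecutive distal CTCF peaks of any class, the convergent, divergent and same-strand shares were 23.2%, 24.2% and 52.6%.

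The sites, like the other CTCF peaks, held the motif of GATA factors less often than open regions without CTCF. This motif, AGATAA, was within 200 bp at 291 sites (7.81%, 6.99 to 8.71), against 13% of the windows beside the sites and 21.7% of distal peaks of both stages without CTCF (20.7 to 22.7). The share was alike in the other distal CTCF classes, at 7.74% of mesoderm-only peaks, 8.62% of HPC-only peaks and 8.66% of peaks without ATAC-seq, and was 6.05% at promoter-proximal peaks. TGTGGT, the motif of RUNX factors, was at 618 sites (16.6%, 15.4 to 17.8), against 13.9% of the windows beside them, 19.9% of distal open peaks without CTCF, 17.3% of mesoderm-only, 19.2% of HPC-only and 16.4% of promoter-proximal CTCF peaks, and 22.2% of CTCF peaks without ATAC-seq. Both strands were searched, and a match of TGTGGT can overlap one of the core. These are matches of letters and not measured binding.

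GC content differed between the classes too. The median GC content over 200 bp was 48.5% at the sites, against 50% at mesoderm-only peaks, 46.0% at HPC-only peaks, 45.5% at peaks without ATAC-seq and 43.0% in the windows beside the sites. With the distal CTCF peaks in 4 groups of equal number by GC content, the share open in mesoderm rose from 15.9% in the lowest group to 45.3% in the highest, and the share that were sites from 5.69% to 13%. Of those open in mesoderm, the share also open in HPCs fell over the same groups from 35.8% (33.5 to 38.2) to 28.7% (27.4 to 30.1). In distal mesoderm peaks without CTCF it went the other way, from 13% to 18.6%.

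Within the Runx1 TAD, 3 of 30 CTCF peaks were sites. The first, at chr16:92828270-92828500 in mm9, was intergenic and lay 2066 bp upstream of the Runx1 start, just outside the 2 kb limit. It was the only CTCF peak within 10 kb upstream of that start. By the study's description, P1-CTCF-KO clones lack the CTCF site at the outer promoter, P1. The guide RNA sequences listed by the study for that deletion flank the AGGGGGC of this first site, so the deletion falls in it. The study calls the deleted site promoter-proximal and places it less than 2 kb from the P1 start. The first site is thus distal here only by the gene start in the count table. The second, at chr16:92801753-92802251, lay in an intron 24.3 kb downstream of the start and 1.65 kb from the next CTCF peak. By the study's coordinates it lay wholly inside the +23 enhancer. The ATAC-seq cells carry an added copy of that enhancer, so the openness of the site and that of the transgene cannot be told apart. The third, at chr16:93293210-93293800, lay in the gene desert, 66.3 kb from the start of 1810053B23Rik, a gene without a count in any mesoderm or HPC library compared here. The promoter site was 231 bp wide, the intron site 499 bp and the gene desert site 591 bp.

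In P1-CTCF-KO cells, Runx1 did not pass the test in either stage. In mesoderm, Runx1 was at 2.87, 9.15 and 11 normalised CPM in the wild-type clones and at 6.68, 8.06 and 2.58 in P1-CTCF-KO clones. The groups overlapped, and the log2 fold change was -0.39 (SE 0.56, adjusted p = 1.0, edgeR quasi-likelihood test). In HPCs it was at 89.0, 71.4, 78.6 and 127 normalised CPM in wild-type libraries and at 159, 72.5 and 133 in P1-CTCF-KO libraries (log2 fold change 0.41, SE 0.40, adjusted p = 0.91, edgeR). Normalised CPM are counts scaled by the effective library sizes of a fit and are not comparable between fits. No gene at all was called in either stage (0% of 8778 genes in mesoderm and 0% of 7422 in HPCs) by edgeR or by DESeq2. Of these genes, 168 in mesoderm (1.91%) and 260 in HPCs (3.50%) had an unadjusted edgeR p under 0.05. Rcan1, a neighbour of Runx1 that encodes a calcineurin inhibitor, was at 0.704 to 1.06 normalised CPM in wild-type mesoderm and at 0.706 to 1.0 in P1-CTCF-KO mesoderm.

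Of 25 hematopoietic regulators, 9 had a site within 100 kb of their start (36.0%, 20.2 to 55.5), beside 7383 of all 25011 genes (29.5%, 29.0 to 30.1). Closest were the sites of Runx1 and of Ikzf2, an Ikaros family factor, 3.26 kb upstream of its start. The sites of Lyl1 (7.84 kb) and Tal1 (18.0 kb), related basic helix-loop-helix factors, and of Cbfa2t3 (20.6 kb), a corepressor in Tal1 complexes, came next. Farther away were those of Cbfb, the partner subunit of Runx1 (49.5 kb), Fli1 (50.5 kb), Gata2 (70.0 kb) and Etv6 (74.8 kb). By GENCODE the Tal1 site lay in an exon of its neighbour Stil, the Lyl1 site in an intron of Nfix and the Cbfa2t3 site in an intron of Gm20388, while the other 5 apart from Runx1 were intergenic.

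The other gene groups ranged from none to shares near that of all genes. Among 20 mesoderm factors, 5 had a site within 100 kb (25%, 11.2 to 46.9), namely Eomes (2 sites, the nearest at 10.2 kb), Msgn1 (12.6 kb), Hand2 (32.8 kb), Mixl1 (67.1 kb) and Tbx6 (80.1 kb). Among 12 pluripotency genes, Zfp42, Nanog, Dppa5a and Esrrb did (33.3%, 13.8 to 60.9), with 3 sites around Nanog. Of 14 genes of CTCF and the cohesin machinery only Ctcf did, and its nearest site was 13974 bp from its start. None of 39 Hox genes had a site within 100 kb (0%, up to 8.97%). Of 9 globin genes, Hbb-y and Hbb-bh1 shared a site 89.8 and 99.8 kb from their starts, which lay 3.61 kb from the olfactory receptor gene Olfr633.

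Most of the 2931 nearest genes were nearest to a single site (2367 genes), 564 to at least 2 and 17 to at least 5. The largest numbers were around Gm30214 on chromosome 14, which was nearest to 13 sites among 53 distal CTCF peaks, and Adam6a on chromosome 12, nearest to 11 of 15. Nrxn3, which encodes a presynaptic adhesion protein, was nearest to 8 of 16, spread over 0.522 Mb inside a gene. Nav3, a neuron navigator gene, and 4930505G20Rik were each nearest to 7 of 9, Rpia to 7 of 14, Mir6540 to 7 of 15 and Mir7094-1 to 7 of 23. Cdca7l was nearest to 6 of 8, of which 4 lay upstream and 2 within a gene. Tgif1, a homeobox repressor of TGF-beta signalling, was nearest to 6 of 15, from 6.32 to 424 kb downstream of its start. By GENCODE only the site at 6.32 kb lay inside Tgif1, and the others lay inside Dlgap1. Of these 10 genes, 5 had no count in any wild-type mesoderm or HPC library.

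The nearest genes were then compared between wild-type mesoderm and HPCs. The summed level of 6 Flk1 mesoderm markers was 35.2 to 65.7 normalised CPM in mesoderm and 3.72 to 15.7 in HPCs, and that of 7 hematopoietic progenitor markers was 11.1 to 29.9 and 162 to 262. The 5 erythroid markers also moved with the stage, from 0.242 to 0.862 in mesoderm to 73.7 to 183 in HPCs, with none of them at 0 in either, and their part in the changes below was not tested. In bulk RNA, fewer cells of a type and less RNA per cell cannot be told apart. Of all 12899 genes tested, 23.3% were called by edgeR's quasi-likelihood test (Benjamini-Hochberg adjusted p under 0.05 and over 2-fold), 10.8% higher and 12.5% lower in HPCs. Of 2931 nearest genes, 1536 passed the filter on low counts, and 438 of these were called (28.5%, 26.3 to 30.8), 207 higher (13.5%) and 231 lower (15.0%). Genes nearest to the other distal classes were called at 27.9% (HPC only), 27.8% (mesoderm only) and 26.0% (no ATAC-seq), and those nearest to promoter-proximal peaks at 22.3%. The intervals of the distal classes overlapped. The median log2 fold change was -0.06 over the nearest genes and -0.01 over all genes tested. The nearest genes tested were also longer, with a median span of 38.8 kb against 25.3 kb for all tested single-locus genes. Among genes whose span held no distal CTCF peak, 14.3% were called in the shortest of 4 equal groups by span and 33.5% in the longest. The part of gene length in the share of the nearest genes was not tested.

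Genes whose span held a site were called more often, at 372 of 956 (38.9%, 35.9 to 42), and were also longer, with a median span of 94.5 kb against 25.3 kb for the genes tested. Among the longest of 4 equal groups by span (over 61.5 kb), 43.7% of 607 genes with a site were called (39.8 to 47.6), 34.7% of 2137 genes with other distal CTCF peaks only (32.7 to 36.8) and 33.5% of 451 with none (29.3 to 38.0). In the group from 25.3 to 61.5 kb the shares were 36.9% of 217 (30.7 to 43.5), 23.4% and 21.7%. In the group below that they were 21.0% of 100, 20.9% and 18.3%, and in the shortest group 18.8% of 32, 17.6% and 14.3%. Spans were not matched within a group, and the longest group reached 2270.5 kb. No test was run on these shares, since the genes are not replicates. In a fit of the 7 mesoderm and HPC libraries alone, where fewer genes passed the filter, 290 of 940 nearest genes were called (30.9%), beside 1939 of all 7343 (26.4%).

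Among nearest genes whose libraries did not overlap between stages, the 10 higher ones with the lowest adjusted p were Smox, Dapp1, Mbp, Atp8a1, Cbfa2t3, Slc25a21, Jak2, Itgb3, Ston2 and Tubb1. Tubb1, the beta-tubulin of platelets, had no count in mesoderm and was at 23.4, 14.8, 15.1 and 26.6 normalised CPM in HPCs, at least 61.9-fold higher against a floor of 3 counts per library. Its site lay 3.36 kb downstream of the start, in an intron. Itgb3, the platelet integrin subunit, was at 0.314, 0 and 0.807 in mesoderm and at 153, 59.6, 70.2 and 151 in HPCs (log2 fold change 7.96, SE 0.64, adjusted p = 1.55e-05, edgeR). Of its 2 sites, 1 lay 17.7 kb upstream, by GENCODE inside Myl4, and 1 lay 160 kb downstream, inside Gm11639. Jak2, the kinase of the erythropoietin and thrombopoietin receptors, was at 2.43, 2.62 and 2.42 in mesoderm and at 22.4, 14.5, 17.7 and 19.2 in HPCs (2.90, SE 0.23, adjusted p = 1.55e-05, edgeR). Its site lay in an intron 2.19 kb downstream of its start. Cbfa2t3 was at 4.94, 4.58 and 4.52 in mesoderm and at 32.1, 30.5, 23.9 and 33.0 in HPCs (2.67, SE 0.21, adjusted p = 1.52e-05, edgeR).

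Of the remaining 6, 5 had log2 fold changes of 3.89 to 6.61. Smox, the spermine oxidase gene, had the smallest adjusted p (3.59e-06, edgeR), with 0.164 to 0.549 normalised CPM in mesoderm and 17 to 24.3 in HPCs. Its site was 68.7 kb upstream. Dapp1, an adaptor of phosphoinositide signalling in lymphocytes, was at 0.164 to 0.484 and 21.8 to 43.8, with its site 9.80 kb upstream. Atp8a1, a phospholipid flippase, was at 4.44 to 5.08 and 41.9 to 97.6, Mbp at 0.392 to 0.819 and 13.1 to 24.0, and Ston2, an endocytic adaptor, at 1.33 to 2.18 and 33.4 to 79.6. By GENCODE the site of Ston2 lay inside Sel1l. Slc25a21, a mitochondrial carrier, had 2 counts in all mesoderm libraries together and 1861 in those of HPCs, where it ranged from 28.7 to 115.

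The 10 lower nearest genes, by the same rule, were Zfp423, Map4k4, Tgif1, Grid1, Mex3a, Nkain1, Spry2, Gja1, Hk2 and Klf12. Zfp423, a zinc finger factor of early progenitors, was at 21.1, 20.0 and 38.4 normalised CPM in mesoderm and at 1.27, 0.862, 0.266 and 0.561 in HPCs (log2 fold change -5.15, SE 0.39, adjusted p = 1.52e-05, edgeR). Its site lay in an intron, 67.5 kb downstream of the start. Tgif1, nearest to 6 sites, was at 2.43, 2.46 and 2.74 in mesoderm and had a single count in the HPC libraries together (adjusted p = 3.34e-05, edgeR). Klf12, a Kruppel-like repressor with 3 sites from 140 to 255 kb downstream, was at 12.2, 9.17 and 9.85 in mesoderm and at 2.43, 1.90, 1.2 and 2.58 in HPCs (-2.35, SE 0.28, adjusted p = 0.000117, edgeR). Gja1, which encodes connexin 43, had 2 sites upstream, at 7.99 and 38.0 kb, and was at 7.92 to 13.3 in mesoderm and 0.133 to 1.5 in HPCs. Spry2, a feedback inhibitor of FGF signalling whose site lay 2.20 kb upstream, was at 1.78 to 2.20 and 0.116 to 0.266. Map4k4, Mex3a and Hk2 were lower with log2 fold changes of -2.41, -3.04 and -2.80, while Grid1 and Nkain1 had 201 and 81 counts in mesoderm and 3 each in HPCs. Tgif1, Spry2 and Nkain1 passed the filter on low counts with the mESC libraries in the fit but not in the fit of 7 libraries.

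Of the 9 hematopoietic regulators with a site within 100 kb, 6 were higher in HPCs and 1 lower, beside 13 higher and 3 lower among the 24 regulators tested. Runx1 was at 5.41, 17 and 20.8 normalised CPM in mesoderm and at 125, 101, 117 and 182 in HPCs (log2 fold change 3.19, SE 0.43, adjusted p = 0.000256, edgeR). Tal1 was at 3.37, 4.26 and 3.55 in mesoderm and at 13.9, 13.1, 13.8 and 15.9 in HPCs (1.94, SE 0.21, adjusted p = 5.97e-05, edgeR). Ikzf2 was at 4.58 to 7.75 and 14.8 to 22.3, and Lyl1 at 0.164 to 1.02 and 1.46 to 4.51. Cbfb was lower, with 8.88 to 11.2 in mesoderm and 2.59 to 5.49 in HPCs (-1.26, SE 0.25, adjusted p = 0.0030, edgeR). Fli1 was at 42.7, 4.26 and 17.5 in mesoderm and at 76.7, 44.0, 55.8 and 117 in HPCs, and its call (adjusted p = 0.041, edgeR) was lost without mesoderm clone C6.1 (0.060) or C8.1 (0.13) and without HPC clone C6.1 (0.057) or C8.1 (0.10). Etv6 (15.1 to 39.2 and 25.3 to 68.6) and Gata2 (1.25 to 2.26 and 0.862 to 1.46) did not pass the test, and the former passed without mesoderm clone B9.3 (adjusted p = 0.018) or HPC library B9.3-2 (0.044). The 6 endothelial markers summed to 3.93 to 100 normalised CPM in mesoderm and 15.9 to 30.3 in HPCs, and their part in these values was not tested.

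In the other groups, Eomes and Mixl1 had no count in HPCs and were at 1.10 to 7.69 and 1.02 to 6.22 in mesoderm, at least 9.21-fold and 7.65-fold lower in HPCs against the floor of 3 counts per library. They were the 2 mesoderm factors with a site that passed the filter, beside 12 lower of 13 tested, and neither passed it in the fit of 7 libraries. Hbb-y (0 to 0.0784 and 7.41 to 14.2) and Hbb-bh1 (0 to 0.392 and 30.1 to 65.6) were higher in HPCs, as were all 6 globin genes tested. The pluripotency genes with a site had 10 counts or fewer in each stage, and none passed the filter in the fit of 7 libraries. The call of Esrrb in the fit that includes mESCs (10 counts in mesoderm and none in HPCs, adjusted p = 0.023, edgeR) is therefore not read as a change, and it was lost without mesoderm clone B9.3 (0.060) or C8.1 (0.058). Ctcf itself was at 12.2, 12.3 and 10.3 normalised CPM in mesoderm and at 8.56, 12.4, 14.1 and 11.5 in HPCs, a log2 difference of 0.01 (SE 0.21) whose sign changed with the scaling. Rpia, the ribose 5-phosphate isomerase gene and nearest to 7 sites, was at 0.327 to 0.807 in mesoderm and 4.12 to 8.27 in HPCs (log2 fold change 3.19, SE 0.41, adjusted p = 0.000193, edgeR).

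**Figure D5:**
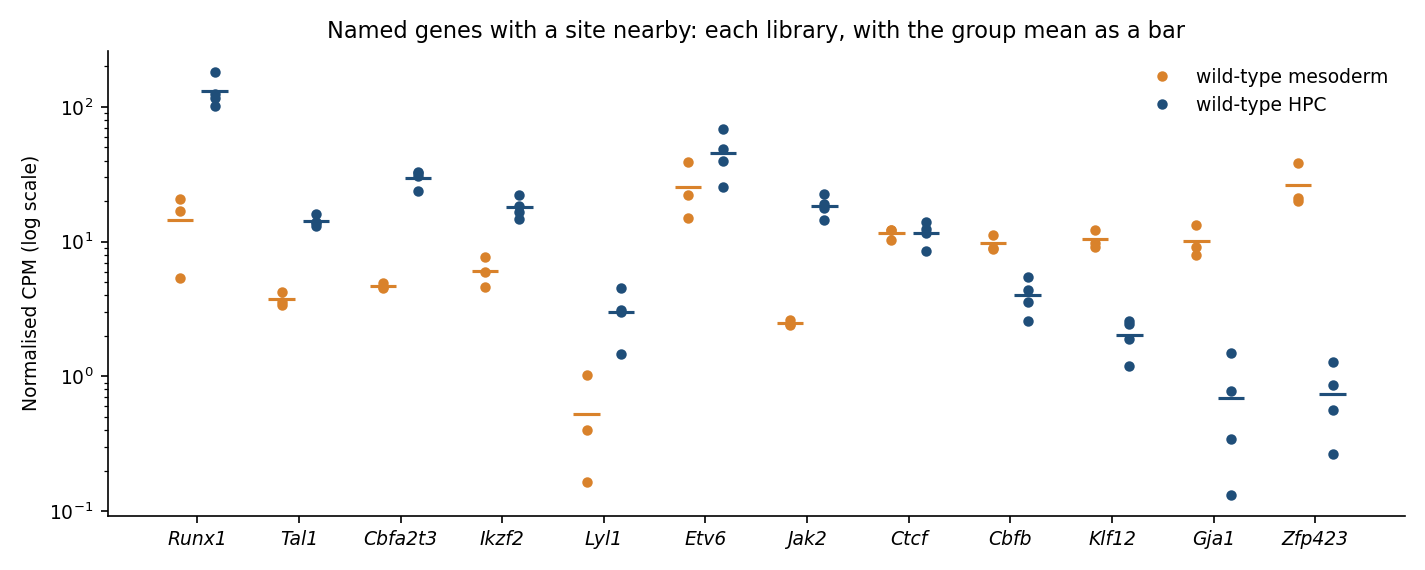
Normalised CPM (log scale) of 12 named genes with a site nearby in each wild-type mesoderm library (orange, 3) and HPC library (blue, 4), with the group mean as a bar. Runx1, Tal1, Cbfa2t3, Ikzf2, Lyl1 and Jak2 do not overlap between stages and lie higher in HPCs, Cbfb, Klf12, Gja1 and Zfp423 lie lower, and Etv6 and Ctcf overlap.

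In P2-CTCF-KO mesoderm, 2 of the genes nearest to a site were lower than in wild-type mesoderm. The edgeR quasi-likelihood test called 3 of 8778 genes (0.0342%), all lower, and 2 of them were among the 1080 nearest genes tested (the third was Prkar2b, which is not nearest to a site). Cbfa2t3 was at 2.62, 2.46 and 2.38 normalised CPM in wild-type mesoderm and at 0.253, 0.340 and 0.484 in P2-CTCF-KO mesoderm (log2 fold change -2.78, SE 0.31, adjusted p = 0.022, edgeR). Ikzf2 was at 3.16, 2.46 and 4.09 and at 0.710, 0.612 and 0.376 (-2.52, SE 0.31, adjusted p = 0.026, edgeR). Both genes were higher in HPCs than in mesoderm in the wild type, a comparison with the same wild-type mesoderm libraries. Neither lies on chromosome 16 with Runx1, since Cbfa2t3 is on chromosome 8 and Ikzf2 on chromosome 1. Runx1 was at 1.47, 5.50 and 4.89 in P2-CTCF-KO mesoderm against 2.87, 9.15 and 11 in the wild type (-0.96, SE 0.58, adjusted p = 0.45, edgeR). An unadjusted edgeR p under 0.05 was found for 198 of the nearest genes (18.3%), beside 1408 of all genes tested (16%). DESeq2 called 38 of the nearest genes (3.52%), beside 166 of all (1.89%). Among the nearest genes edgeR called none without wild-type clone C8.1 or without any 1 of the P2-CTCF-KO clones (D10.1, D2.1, E9.1), and 19 without wild-type clone C6.1 (1.66%, beside 127 of all, 1.37%).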

How the data were processed

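CTCF ChIP-seq, ATAC-seq and poly(A)-minus RNA-seq data were analysed. The authors mapped reads to mm9 and called peaks with MACS2 on merged libraries, against input for CTCF, at a threshold of 0.02 that is a p-value in the Methods and an FDR in the reporting summary. The deposited lists hold positions alone. The deposited counts are reads over exons and introns per gene, counted by the authors with featureCounts without normalisation. Every count column was assigned to a sample (0 left out). The annotation and strand setting are not given in the sources used here, so overlapping genes may share reads. Ribosomal RNA depletion is named for undifferentiated mESCs but not for mesoderm or HPCs.

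Gene starts came from single-locus rows of the count table (24961 of 25146, without 135 rows at several loci and 50 with spans over 2.5 Mb). The rows at several loci took 47.2% to 56.3% of the counts of each library. Sequence was read from mm9 (NCBIM37) with pysam 0.24.0, place from GENCODE vM1, and overlaps were computed in Python 3.11.15. The count test was edgeR 4.0.16 in R 4.3.3 (TMM, filterByExpr with a minimum count of 10, quasi-likelihood test, Benjamini-Hochberg over all genes tested) in fits of 9 wild-type, 9 mesoderm or 12 HPC libraries. Calls needed an adjusted p under 0.05 and a change of over 2-fold. The scripts were tested on simulated data. P-values measure the spread between clones and libraries of 1 parental line. The fit of 9 wild-type libraries shares 1 estimate of this spread. That estimate includes the 2 mESC libraries labelled technical replicates and 2 HPC libraries of clone B9.3, so it is in part spread within a clone or sample. The fit of 12 HPC libraries includes P2-CTCF-KO libraries and repeat libraries of clones B9.3, D10.1 and D2.1, so its spread is also in part within a clone.

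Named genes were, per comparison, the 10 higher and 10 lower called genes nearest to a site with the smallest adjusted p and no overlap between libraries, the 10 genes nearest to most sites, and listed genes with a site within 100 kb. Sequences were due for the Runx1 TAD and for the nearest sites of Runx1, Tal1, Gata2, Lmo2, Kdr, Meis1, Gfi1b, Myb, Spi1 and Kit if they held the full core. Of these, Runx1, Tal1 and Gata2 had a site within 100 kb, none with the full core. Other sequences were added after their values were seen. The sites, lists and tests were chosen with earlier results of these data known. Alternatives were DESeq2 1.42.0, RLE size factors, no filter, other distance, overlap and width limits, the clone as a block and each library left out. P1-CTCF-KO, GENCODE starts and the core with 1 mismatch were added after the data were seen. Starts of rows at several loci are not given singly, so the alternative with them was not run.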

Additional observations from a re-analysis of the deposited data

Results flagged for a closer look

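Of 43 named genes examined in the 4 wild-type HPC libraries, 4 had a library that stood apart from the other 3, where chance would give about 1 in 20 groups. Map4k4, a kinase gene with a site in an intron, was at 12.4 normalised CPM in HPC library B9.3 and at 6.91 to 7.40 in the others, and all 4 lay below mesoderm (44.0 to 47.1). Tgif1 and Nanog were each at 0.116 normalised CPM in library B9.3 and at 0 in the others. Zfp42 was at 0.112 in library C8.1 and at 0 in the others. The last 3 values are single counts.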

How the results depend on the processing

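The number of sites depended most on the width of the ATAC-seq peaks: with only the wider peaks of each list, 1124 sites remained, the median gap was 1200399.5 bp, the median distance to a gene start 31124.5 bp and the share inside genes 40.7%. With the wider CTCF peaks the median distance was 30297 bp and the median gap 410629 bp. With a limit of 1 kb from gene starts the median distance was 31023 bp, and with 5 kb it was 37740.5 bp with a gap of 320580.5 bp. With GENCODE starts, added after the data were seen, the gap was 320231 bp and the share inside genes 40.5%. The core was in 45.5% of 200 bp windows, or 91.2% with 1 mismatch.

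Of the nearest genes, 290 were called between mesoderm and HPCs in the fit of 7 libraries alone and 276 with the clone as a replicate block, where 940 could be tested, and 356 to 486 with 1 library left out. Deviations of the same clone in both stages did not correlate in every case (r = 0.128, -0.143, 0.161 and -0.063 over 12899 genes), so the clones were not treated as pairs. For P2-CTCF-KO mesoderm against the wild type, 83 were called without the filter, 38 by DESeq2 and 0 to 19 with 1 library left out. The cause of these differences was not tested.

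The log2 fold change of Ctcf was -0.047 with RLE size factors, -0.0070 without the filter, -0.046 by DESeq2, -0.14 in 7 libraries, -0.13 with the block, and -0.019, -0.099 and -0.074 without HPC library B9.3-2, HPC clone C6.1 or mesoderm clone C8.1. Between P1-CTCF-KO and wild-type mesoderm, that of Setd4 was -0.17 without P1-CTCF-KO clone E7.2 and that of Rcan1 0.0046 without wild-type clone C8.1. The 34 called named genes kept their call in 374 of the 390 refits that tested them, and their direction in all of those. Refits in which a gene failed the filter on low counts are not among the 390. This held for Eomes, Esrrb, Mixl1, Nkain1, Spry2 and Tgif1 in the fits of 7 libraries, with and without the block, so they have no call there. Among the 390, calls were lost in 16, for Fli1, Esrrb, Cbfa2t3 and Ikzf2. Peaks without heights and 2 merged HPC libraries limit the sites that could be found.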

Other observations

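Of 5 antigen receptor loci, a group chosen after the values were seen, 3 with 12 or more sites had a higher share of sites among their distal CTCF peaks than the series as a whole. The segments of these loci are rearranged in lymphocytes. At the immunoglobulin heavy chain locus on chromosome 12 (Igh, 2.73 Mb), 20 of 95 distal CTCF peaks were open in both stages (21.1%, 95% Wilson interval 14.1 to 30.3), and 12 of the 20 held the full core CCNNNAGNNGGC. The immunoglobulin kappa locus on chromosome 6 (Igk, 3.17 Mb) had 12 sites among 47 distal peaks (25.5%, 15.3 to 39.5), of which 0 held the full core. The T cell receptor alpha locus on chromosome 14 (Tra, 1.80 Mb) had 15 among 79 (19.0%, 11.9 to 29.0), and 9 of these held it. The T cell receptor beta locus on chromosome 6 had 1 among 17 (5.88%), and the T cell receptor locus on chromosome 13 had 1 among 2. Over all distal CTCF peaks the share was 9.31%, and no test was made, since the loci were picked for their numbers. Genes nearest to these sites include Adam6a and Mir7094-1 at Igh, Gm30214 at Tra and Rpia at Igk.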
